A study of Mus musculus with 4 samples.

Results

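Gemcitabine is a cytidine analog that works only after a cell has taken it up and phosphorylated it, and 10 mouse genes that carry out these steps were followed through 4 arrays of pancreatic cancer cells. They were the uptake transporters Slc29a1 and Slc28a3, the kinases Dck and Cmpk1, the inactivating enzymes Cda, Dctd and Nt5c, and the ribonucleotide reductase subunits Rrm1, Rrm2 and Rrm2b. The genes were chosen by their known roles, with earlier results of these data known. They were found in the files by gene name, among 36918 gene names on the array. All 10 were among the 19093 genes with a signal well above background on at least 2 arrays, and they were read by 15 probes.

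The cells were mouse pancreatic cancer cells of the C57BL/6 strain, called K5 and K6. Each was treated for 24 h with DMSO, the control, or with halofuginone at 100 nM, and each of the 4 combinations gave 1 array. Halofuginone blocks the charging of tRNA with proline by the product of Eprs, and the title of the series concerns depletion of Nrf2, repression of Aldh3a1 and sensitivity to gemcitabine. No gemcitabine was given to these cells, as far as the labels say. The labels do not say what sets K5 apart from K6 or whether either is a clone. They are called lines below. The design pairs control and halofuginone within K5 and within K6. Nothing says that the samples came from separate cultures, so the p-values below reflect nothing beyond the scatter of 4 samples, to which the fit adds information shared across genes.

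Gemcitabine cannot cross the membrane unaided: the equilibrative transporter ENT1 (Slc29a1) and the concentrative transporter CNT3 (Slc28a3) carry it in. Deoxycytidine kinase (Dck) adds the first phosphate, which is the rate-limiting step, and UMP-CMP kinase (Cmpk1) adds the next. Cytidine deaminase (Cda) converts the drug itself to an inactive uridine form, dCMP deaminase (Dctd) does the same to its monophosphate, and the nucleotidase encoded by Nt5c removes phosphate from deoxynucleoside monophosphates. The diphosphate form inhibits ribonucleotide reductase, which makes the deoxynucleotides that compete with the drug. Rrm1 encodes the large subunit of that enzyme, Rrm2 the small subunit made in S phase, and Rrm2b (p53R2) a small subunit that p53 can induce and that is also made outside S phase.

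Probe sequences are shown for 3 genes whose arrays separated by treatment or by line, as the files give them in mm9 coordinates. The Nt5c probe starts at base 405 of NM_015807 and lies at chr11:115352187-115352246. The Rrm2b probe starts at base 786 of NM_199476, and its file coordinates, chr15:37853688-37853723, cover only 36 of its 60 bases. The Dctd probe starts at base 500 of NM_178788, and its file coordinates, chr8:49197399-49222612, span 25214 bases for 60 bases of probe.
Nt5c: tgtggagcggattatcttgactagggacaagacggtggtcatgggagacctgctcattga
Rrm2b: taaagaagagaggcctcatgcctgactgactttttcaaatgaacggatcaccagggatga
Dctd: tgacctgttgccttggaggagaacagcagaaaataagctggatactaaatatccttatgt

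Promoter sequence is shown for Rrm1 and Rrm2, the S phase subunits. Both were lower with halofuginone in K6, as were Dck and Nt5c, while in K5 their changes had opposite signs. RefSeq (GRCm38.p6) gave an entry for 9 of the 10 genes. The window is the 250 bases before the transcript start, at chr7:102441445-102441694 for Rrm1 and chr12:24708004-24708253 for Rrm2, both on the forward strand and written 5′ to 3′. Capitals mark CCAAT, the core of the NF-Y motif, and TCCCGC, a core of E2F motifs, searched on both strands.
Rrm1: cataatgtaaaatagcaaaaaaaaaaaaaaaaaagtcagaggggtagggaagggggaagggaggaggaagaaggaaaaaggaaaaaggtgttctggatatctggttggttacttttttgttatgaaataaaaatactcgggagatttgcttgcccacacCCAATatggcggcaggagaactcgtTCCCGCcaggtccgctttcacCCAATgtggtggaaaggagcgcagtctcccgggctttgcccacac
Rrm2: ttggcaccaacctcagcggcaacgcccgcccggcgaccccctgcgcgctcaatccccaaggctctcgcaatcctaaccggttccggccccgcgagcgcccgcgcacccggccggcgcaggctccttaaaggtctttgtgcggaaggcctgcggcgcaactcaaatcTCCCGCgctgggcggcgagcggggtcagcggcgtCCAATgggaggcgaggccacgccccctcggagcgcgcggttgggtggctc
The Rrm1 window holds CCAAT at 91 and 45 bases before the start, with TCCCGC between them at 66. In Rrm2 the order is TCCCGC at 84 and CCAAT at 50 bases before the start. Of 32851 RefSeq promoter windows of this length, 33.8% hold CCAAT and 16.9% hold TCCCGC. The GC box core GGGCGG, held by 32.7% of windows, occurs 2 times in the Rrm2 window and not in that of Rrm1. TGATGNAA, the composite element of Atf4 and C/EBP, is held by 3.45% of windows and by none of the 18 windows of the 9 genes. The motifs were chosen with the sequences in view, and a match describes letters only.

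No gene of the 10 passed the test for halofuginone against control over both lines (limma, adjusted p under 0.05), against 8.96% of the genes tested. At an unadjusted p under 0.05, 4 of the 10 passed, namely Slc29a1, Cmpk1, Nt5c and Rrm2b, as did 6506 of all 19093 genes. The smallest mean change among all genes that passed was 1.48 on the log2 scale, and of the 10 genes Nt5c alone had a mean change beyond that. Over 13 settings of the processing, this one included, Nt5c passed in 4, Slc29a1 and Rrm2b in 2 each and Rrm1 in 1. Arrays of bulk RNA cannot tell fewer cells in a state, such as S phase, from less RNA per cell. In 6 of the 10 genes both halofuginone arrays lay above both controls or both below, against 58.6% of the tested genes, so the share was close to the background. The direction was up in both lines for Slc29a1, Cmpk1 and Rrm2b, and down in both for Dck, Cda, Nt5c and Rrm1. The K5 change of Dck, -0.064, and the K6 change of Cda, -0.18, were small. As read, it was opposite in K5 and K6 for Slc28a3, Dctd and Rrm2, 3 of the 10, against 23.3% of tested genes. Of these Rrm2 alone had opposite signs under every scaling tried and with all readings well above background: Slc28a3 has no settled direction in K6, and the sign of Dctd in K6 varied with the scaling. The median of the 10 genes' log2 changes was -0.17 in K5 and -0.082 in K6, beside -0.027 and 0.044 over all tested genes.

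**Figure D1:**
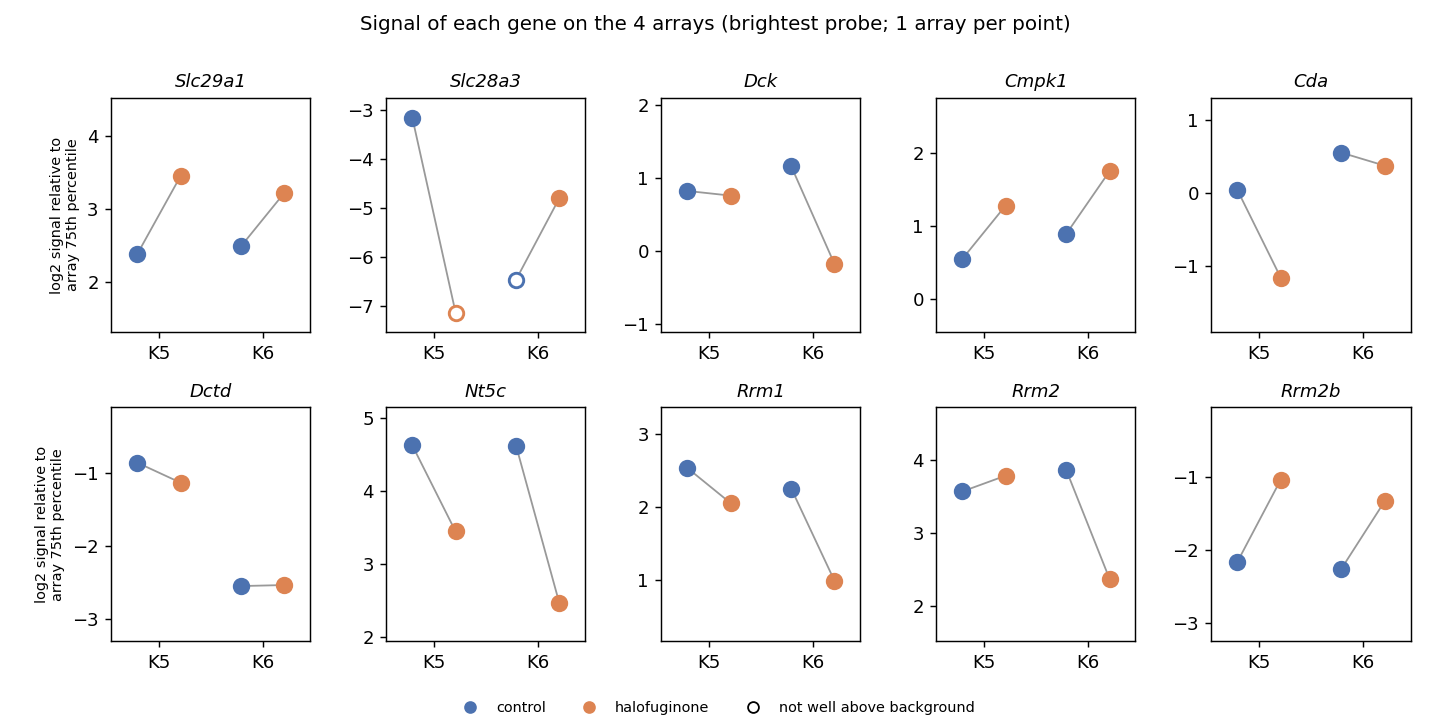
Signal of the brightest probe of each of the 10 genes, as log2 relative to the 75th percentile of its array, with 1 array per point, the line on the horizontal axis and a grey segment joining control and halofuginone of a line. Panel heights differ where the readings spread widely, and the open Slc28a3 points are not well above background. Nt5c is lower with halofuginone in both lines, Rrm2b higher in both, and Dctd differs between the lines rather than between treatments.

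Levels below are log2 values of the processed signal relative to the 75th percentile of the array, so a value of 0 is that percentile. A change is halofuginone minus control, and with 1 array per condition a change within a line has no test. The scanner's own error for a bright probe corresponds to 0.144 on this log2 scale for a value and 0.204 for a change. Every probe of the 10 genes had 1 spot per array. Levels of different genes come from different probes and are not set against each other.

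Among the uptake transporters, Slc29a1 (ENT1) was read higher with halofuginone in both lines. Its level was 2.38 in K5 control and 3.45 in K5 halofuginone, and 2.49 in K6 control and 3.22 in K6 halofuginone. Both halofuginone arrays lay above both controls, and the control levels of the lines nearly coincided. The change was 1.07 in K5 and 0.73 in K6, with a mean of 0.90 (SE 0.27, 1.86-fold, n = 2 lines). It did not pass the test (limma, adjusted p = 0.110), and the 95% interval of the mean change ran from 0.15 to 1.65.

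Slc28a3 (CNT3) was near or below the detection limit. Its brightest probe was well above background in K5 control at -3.16 and in K6 halofuginone at -4.80, and not well above background in K5 halofuginone and K6 control. The K5 control reading was 3.40-fold above the limit of the K5 halofuginone array, -4.92. In K6 the limit of the control array, -4.25, lies above the reading with halofuginone, so no fold is given there. The other 2 probes of Slc28a3 were dim on all 4 arrays. As read, the mean change was -1.16 (SE 1.44, limma, adjusted p = 0.605), with a 95% interval from -5.17 to 2.85.

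Of the kinases, Dck was lower with halofuginone mainly in K6. Its level was 0.82 in K5 control and 0.76 in K5 halofuginone, a change of -0.064 that is smaller than the scanner error. In K6 it was 1.16 in control and -0.18 with halofuginone, a change of -1.34 or 2.53-fold. Both halofuginone arrays lay below both controls, by a narrow margin in K5. The mean change was -0.70 (SE 0.41, limma, adjusted p = 0.302), with a 95% interval from -1.84 to 0.44.

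Cmpk1 was read higher with halofuginone by nearly the same amount in both lines. Its level was 0.55 in K5 control, 1.28 in K5 halofuginone, 0.89 in K6 control and 1.75 in K6 halofuginone. The treated arrays were both above both controls. The change was 0.73 in K5 and 0.86 in K6, with a mean of 0.79 (SE 0.26, 1.73-fold), which did not pass the test (limma, adjusted p = 0.125, 95% interval 0.077 to 1.51).

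Cda, which inactivates the drug before it is phosphorylated, was lower with halofuginone in K5 and little different in K6. The K5 level was 0.044 in control and -1.15 with halofuginone, a change of -1.20 or 2.29-fold. In K6 it was 0.56 in control and 0.38 with halofuginone, a change of -0.18 that lies within the scanner error. The treatment groups overlapped, since K6 halofuginone stood above K5 control. The mean change was -0.69 (SE 0.36, limma, adjusted p = 0.262), with a 95% interval from -1.69 to 0.32.

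Dctd, which deaminates the monophosphate, differed little between treatments. Its level was -0.86 in K5 control and -1.14 in K5 halofuginone, and -2.55 in K6 control and -2.54 in K6 halofuginone. The change was -0.27 in K5 and 0.013 in K6, where its sign varied with the scaling (-0.17 to 0.11), and the mean of -0.13 had a 95% interval from -0.87 to 0.61 (limma, adjusted p = 0.757).

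Nt5c had the mean change farthest from 0 among the 9 genes read well above background on all 4 arrays. Its brightest probe read 4.62 in K5 control and 3.44 in K5 halofuginone, and 4.61 in K6 control and 2.46 in K6 halofuginone. The controls of the lines were nearly equal, and both halofuginone arrays lay below them. The change was -1.18 in K5 (2.27-fold) and -2.15 in K6 (4.45-fold), and the mean was -1.67 (SE 0.35, 3.17-fold, 95% interval -2.65 to -0.68). It missed the threshold (limma, adjusted p = 0.0651, unadjusted p = 0.00941), and 7.02% of tested genes had a mean change as low or lower. Nt5c was the only one of the 10 with at least 2-fold change in the same direction in both lines, a property of 18.2% of tested genes. Rrm2b joined it with quantile normalization (1.15 in K5 and 1.003 in K6) and in the authors' deposited table (1.14 and 1.016).

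A second Nt5c probe, whose sequence is printed above, lies 370 bases from the brightest one on the same strand. It read 2.45 in K5 control, 1.12 in K5 halofuginone, 2.45 in K6 control and 0.25 in K6 halofuginone. Its changes of -1.33 and -2.20 were close to those of the brightest probe, and its mean change was -1.77 (SE 0.34) with an adjusted p of 0.0626 over 28262 probes (limma). The remaining probe that the files name Nt5c belongs to the transcript AK141508, has its coordinates in the opposite order and lies 2762 bases away, although RefSeq gives the gene a length of 1651 bases. Its changes were -0.45 in K5 and -0.20 in K6 (mean -0.33, limma, adjusted p = 0.446 over the same probes). The probes on the Nt5c mRNA moved alike, and the probe on the opposite strand moved less.

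**Figure D2:**
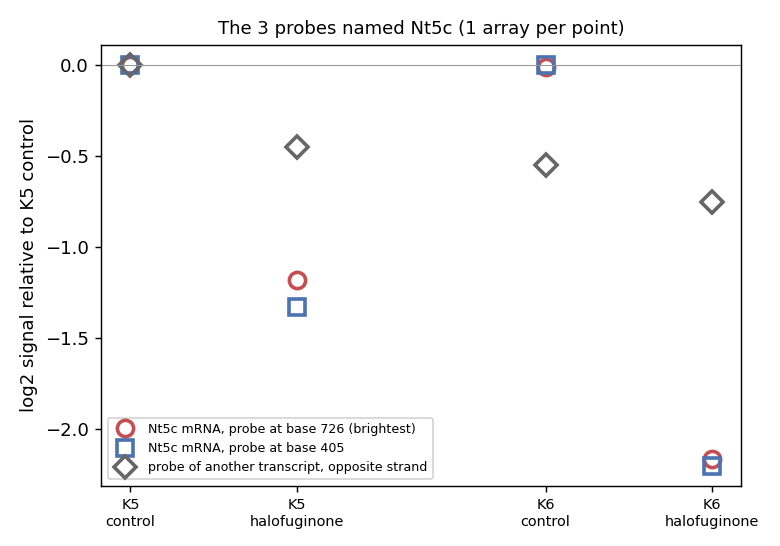
Log2 signal of the 3 probes that the files name Nt5c, each relative to its own value in K5 control, on the 4 arrays, with 1 array per point. The circles and squares, on the Nt5c mRNA, lie together on every array and are about equal in both controls, while the diamonds, the probe on the opposite strand, stay closer to 0 with halofuginone.

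Among the reductase subunits, Rrm1 was lower with halofuginone in both lines. The level was 2.54 in K5 control, 2.06 in K5 halofuginone, 2.26 in K6 control and 0.99 in K6 halofuginone. Both treated arrays stood below both controls. The change was -0.48 in K5 and -1.26 in K6, with a mean of -0.87 (SE 0.32, 1.83-fold). The 95% interval, -1.77 to 0.025, includes 0 (limma, adjusted p = 0.153).

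Rrm2 showed opposite changes in the lines. Its level was 3.57 in K5 control and 3.79 in K5 halofuginone, and 3.87 in K6 control and 2.38 in K6 halofuginone. K6 halofuginone was the one array set apart, 2.81-fold below its control, while the other 3 lay within a narrow range. The K5 change of 0.22 was about the size of the scanner error, and the K6 change was -1.49. The mean of -0.64 (SE 0.50) did not pass the test (limma, adjusted p = 0.422, 95% interval -2.02 to 0.75).

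Rrm2b was higher with halofuginone in both lines. The level was -2.17 in K5 control and -1.04 in K5 halofuginone, and -2.26 in K6 control and -1.34 in K6 halofuginone. All 4 readings were well above background, and both treated arrays lay above both controls. The change was 1.12 in K5 and 0.92 in K6, and the mean was 1.02 (SE 0.26, 2.03-fold, 95% interval 0.30 to 1.75), which did not pass the test (limma, adjusted p = 0.0849). Another probe of Rrm2b, on the transcript ENSMUST00000127362, was dim on all 4 arrays. The change of Rrm2 minus that of Rrm2b was -0.91 in K5 and -2.41 in K6, so within each line the small subunits moved unequally, with the higher change in Rrm2b. This difference is one of changes, not of levels.

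**Figure D3:**
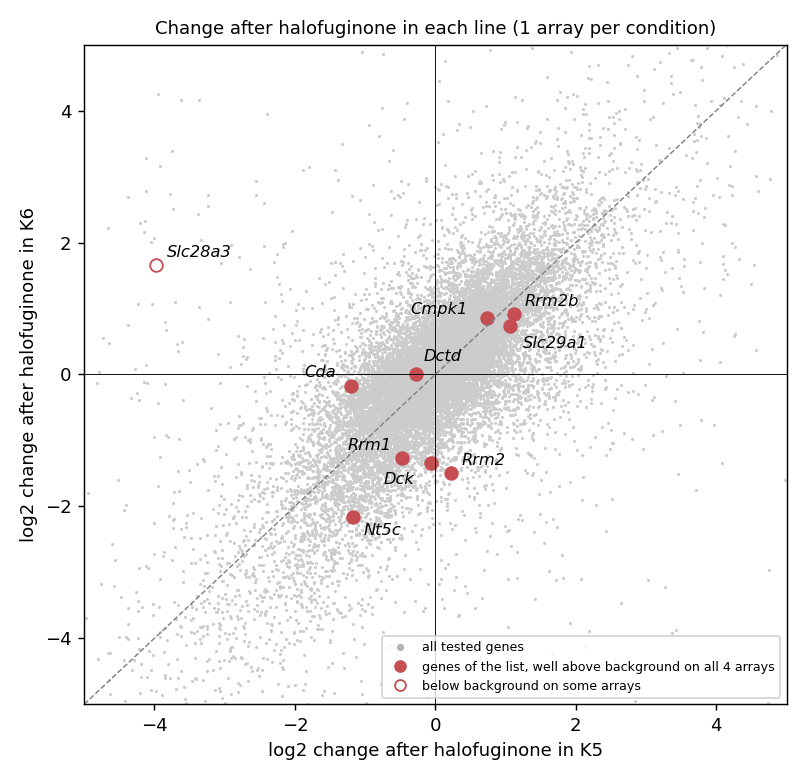
Log2 change after halofuginone in K5 (horizontal) and K6 (vertical) for the 10 named genes over all tested genes in grey; the dashed line marks equal change, and 187 tested genes lie beyond the axis limits of 5 and are not drawn. Slc29a1, Cmpk1 and Rrm2b form a group in the upper right, and Nt5c lies in the lower left. Nt5c, Dck, Rrm1 and Rrm2 lie below the dashed line, with a lower change in K6 than in K5. Of these Rrm2 was lower with halofuginone in K6 only, and the K5 change of Dck was smaller than the scanner error.

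Changes of at least 2-fold within a line were read for 5 of the 10 genes in K5, namely Slc29a1, Slc28a3, Cda, Nt5c and Rrm2b, against 29.0% of tested genes. In K6 they were read for Dck, Nt5c, Rrm1 and Rrm2, and as read also for Slc28a3, which has no valid fold there, against 32.8% of tested genes. Which genes pass 2-fold varied with the processing. The K6 change of Rrm2b was 1.003 with quantile normalization and 1.016 in the authors' deposited table, both past 2-fold, while the K5 change of Slc29a1 was 0.978 with median centring and that of Rrm2b 0.837 with normexp. Whether the lines respond differently was not tested, since the difference between their changes is the only residual of the fit. Each line was set against its own control array.

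The lines themselves were compared over both treatments. No gene of the 10 passed (limma, adjusted p under 0.05), against 0.173% of tested genes, and at an unadjusted p under 0.05 there were 2, Cda and Dctd, as were 2967 of all genes tested. The K6 arrays did not overlap the K5 arrays for the same 2 genes, against 28.8% of tested genes. Both are deaminases, and they differed in opposite directions.

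Dctd was lower in K6 than in K5 by -1.69 in control and -1.40 with halofuginone. Over both treatments the log2 difference was -1.55 (SE 0.27, 2.92-fold, unadjusted p = 0.00443, limma, adjusted p = 0.132), a difference as low or lower in 3.42% of tested genes. Cda was higher in K6, by 0.51 in control and 1.53 with halofuginone, and its difference of 1.02 (SE 0.36, 2.03-fold) had an adjusted p of 0.318 (limma). The K5 control reading of Slc28a3 was 2.13-fold above the limit of the K6 control array. The difference between control arrays was 0.11 for Slc29a1, -0.009 for Nt5c and -0.098 for Rrm2b, all within the scanner error. It was -0.28 for Rrm1, 0.29 for Rrm2 and 0.34 for both Dck and Cmpk1, beyond that error. The error is the scanner's alone and holds no spread between cultures or arrays. For Slc29a1, Nt5c and Rrm2b the lines started from like readings. With 1 control array for each line, no difference between the control arrays was tested for any of these genes.

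**Figure D4:**
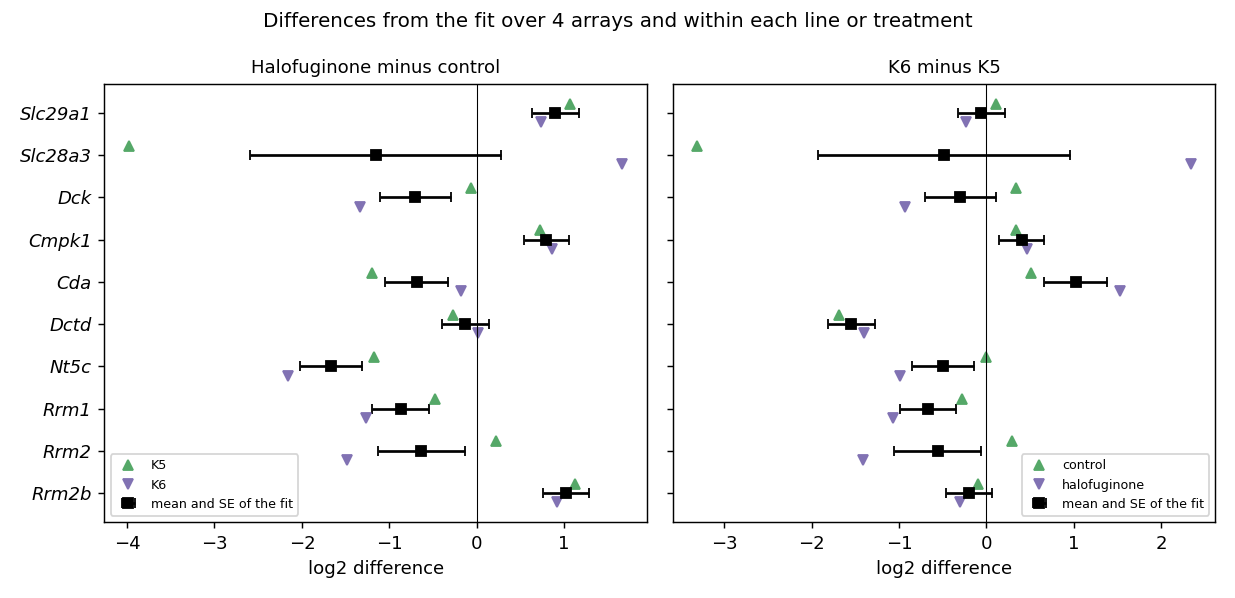
Log2 differences of the 10 genes from the fit over 4 arrays (black squares with SE), for halofuginone minus control on the left and K6 minus K5 on the right. Triangles give the difference within each line (left) or each treatment (right). Those of Rrm2b, Slc29a1 and Cmpk1 lie close together on the left, and those of Dctd lie together at about -1.5 on the right. In both panels those of Rrm2 and, as read, of Slc28a3 lie on both sides of 0. So do those of Dctd on the left and of Dck and Slc29a1 on the right.

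Other genes of nucleotide metabolism and of the cell's use of it were read from lists. Of 35 other nucleoside transporters and nucleotide enzymes, 30 were tested, 1 rose and none fell, against the 8.96% of all tested genes that passed, with 17 higher and 12 lower in both lines. The one that rose was Uck1, a uridine-cytidine kinase, with changes of 1.74 in K5 and 1.40 in K6 (mean 1.57, SE 0.27, limma, adjusted p = 0.0498). Upp1, uridine phosphorylase, had a mean change of 1.67 (adjusted p = 0.0919). The lowest mean changes were those of Ctps2, a CTP synthetase, at -1.80 (adjusted p = 0.0540), and Tk1, the thymidine kinase of S phase, at -1.51 (adjusted p = 0.0811). The list had a median log2 change of 0.33 in K5 and of 0.13 in K6.

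S phase genes are the usual company of Rrm1 and Rrm2. Of 30 listed, 29 were tested and none passed the test, against 8.96% of all tested genes. At an unadjusted p under 0.05 there were 9 of 29, beside 6506 of all 19093. They were higher in both lines for 15, lower in both for 7 and opposite for 7, with a median log2 change of 0.55 in K5 and of 0.050 in K6. The highest mean changes were those of the replicative helicase subunits Mcm4 at 1.23 and Mcm2 at 1.14, with an adjusted p of 0.0692 and 0.112 (limma). The lowest were those of E2f8, a repressor of the E2F family, with -0.44 in K5 and -2.94 in K6, and of Gmnn (geminin, an inhibitor of replication licensing), with -0.89 in K5 and -2.32 in K6. As for Rrm1 and Rrm2, the change of both was lower in K6 than in K5. So was that of Mcm2, of Mcm4 and of most other tested genes of the list. Mcm2 and Mcm4 on the one hand and Rrm1 on the other had mean changes of opposite sign within the same arrays.

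Rrm2b is a known p53 target, and of 21 genes listed as p53 or its targets, 3 rose and 2 fell with all 21 tested, 5 of 21 beside 8.96% of all tested genes. Those that rose were Plk2 (mean change 2.83, adjusted p = 0.0423), Sesn2 (2.20, adjusted p = 0.0428) and Gadd45a (2.18, adjusted p = 0.0404). Plk2 is a polo-like kinase, and Sesn2 and Gadd45a are stress genes that are also induced without p53. Those that fell were the sestrin Sesn1 (-1.70, adjusted p = 0.0454) and the cyclin Ccng1 (-1.48, adjusted p = 0.04995). Of the list, 12 genes were higher in both lines, 4 were lower in both and 5 were opposite. The list's median log2 change was 0.37 in K5 and 0.49 in K6. With no replicate block, without the filter on dim probes, or with the percentile taken over probes well above background on all 4 arrays, 0 of all genes passed, so the calls in these lists end there, with 4492, 15052 and 6482 genes at an unadjusted p under 0.05 (limma).

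**Figure D5:**
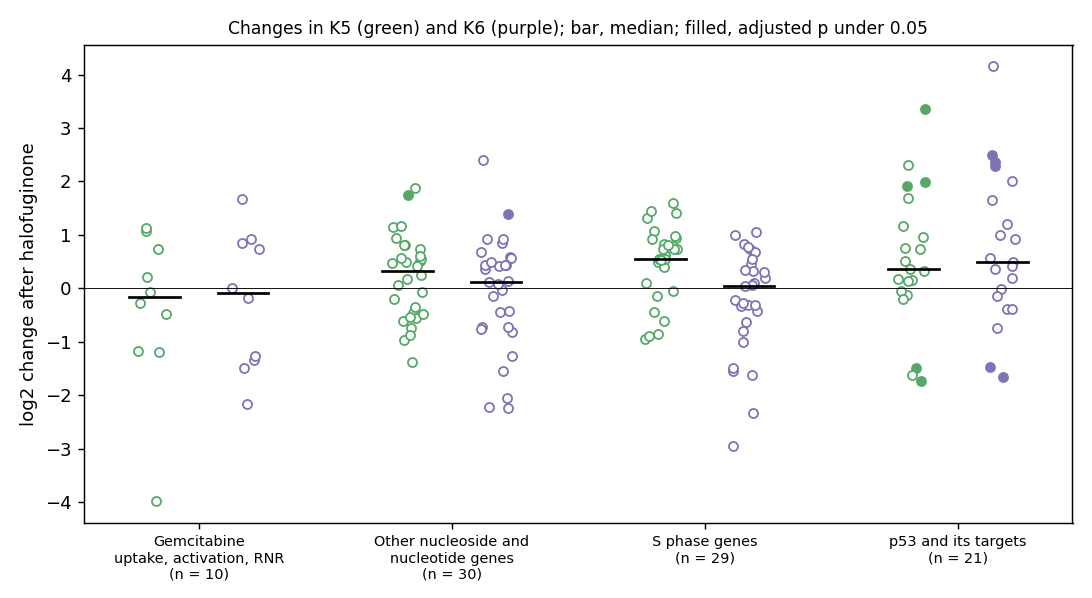
Log2 change after halofuginone in K5 (green) and K6 (purple) for the 10 genes and the tested members of 3 lists, with 1 point per gene, a bar at the median and filled points for genes that passed the test over both lines. The S phase genes have a median of 0.55 in K5 and 0.050 in K6, and the filled points of the p53 list lie on both sides of 0.

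The genes whose 4 centred log2 values lay closest to those of a member, by root mean square difference over the 4 arrays, were as follows. For Dck they were Dpy19l1, Morn1 and Dtx4, with Dpy19l1 at 0.025. For Rrm1 they were Snapin, Oma1 and Phkb, with Snapin at 0.026. For Rrm2 they were 7420701I03Rik, Cyb5rl and Bst2, with the nearest at 0.051, and for Rrm2b they were Ammecr1, Nup188 and 9130007G19Rik, with Ammecr1 at 0.020. Over 4 arrays such likeness is common: 30 genes lay within 0.1 of Dck, 50 of Rrm1, 6 of Rrm2 and 89 of Rrm2b.

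The arrays had 47.2% to 54.0% of spots well above background, the higher shares in the halofuginone arrays, and no spot was saturated. All 4 arrays lay on 1 slide. The label of pancreatic cancer cells was checked against markers: 8 of 8 epithelial markers, such as Krt8, Krt19 and Cdh1, were well above background on all 4 arrays. Of these, Muc1, a membrane mucin, fell (mean change -3.40, limma, adjusted p = 0.0359). In the acinar list 4 of 6 markers were not well above background on any array, and the elastase gene Cela1 fell (-2.53, adjusted p = 0.0370). The summed acinar signal, in units of the array's 75th percentile, was 3.67 and 2.47 in the controls and 0.747 and 0.458 with halofuginone. In the immune list 4 of 6, Ptprc, Cd3e, Csf1r and Cd68, were well above background on all 4 arrays. Cd68 fell (-1.79, limma, adjusted p = 0.0441). Cd3e and Csf1r were lower and Ptprc higher in both lines, and none of these passed. Cd79a and Lyz2 were not well above background on any array. The summed immune signal in the same units was 5.84 and 6.18 in the controls and 5.55 and 4.47 with halofuginone. In the fibroblast list 2 of 6 were tested and none passed, and its summed signal was 17.8 and 15.9 in the controls and 11.7 and 9.28 with halofuginone. In the endocrine list 1 of 4 was tested and did not pass, with a sum between 0.104 and 0.122 on every array. In the endothelial list 1 of 4 was tested, Kdr, which rose (2.61, adjusted p = 0.0366), and the sum was 0.0692 and 0.113 in the controls and 0.122 and 0.449 with halofuginone. The epithelial sum was 916.7 and 702.4 in the controls and 967.1 and 975.8 with halofuginone. Each sum takes every listed gene, also those not well above background. Cela1 was the brightest acinar gene and Acta2 the brightest fibroblast gene on every array, so those sums mostly follow that gene. In K5 control no endothelial gene was well above background. The part of other cell types in the values above was not tested.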

How the data were processed

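RNA from 4 samples was amplified and labelled with 1 dye, Cy3, per the labels' protocols, and read on Agilent arrays. From the scanner output the authors deposited, the processed signal was taken, an intensity already background-subtracted within each array, per the file headers (Feature Extraction 10.7.1.1; the submitters' processing notes name 9.5.1.1). The authors' deposited value table, also an intensity, served as an alternative; no source used here gives the step that made it. Deposited intensity was turned into log2 here, minus the 75th percentile over the array's spots other than controls. Outlier spots were dropped, which left out 301 probes. A gene took the value of its brightest probe, and a gene needed a signal well above background on at least 2 arrays to enter limma 3.58.1 in R 4.3.3, with treatment and line as terms, empirical Bayes and Benjamini-Hochberg adjustment over 19093 genes. Residual degrees of freedom were 1, and empirical Bayes added 2.97. Line is the replicate number and the pairing: same-numbered samples share their cells. A 2-sided exact permutation test of 2 against 2 arrays that ignores the pairing cannot go below p = 0.333. The limit of an array is its lowest signal well above background. Folds for dim readings set the brighter signal against that limit. A dim reading can lie above the limit, so such a fold is not a strict bound. The fit was also run on data simulated from its own model, which checked its mean estimates and not the calls made here. Precision is limited by the number of arrays.

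The 10 genes and the lists were chosen with earlier results of these data known. Named are the 10 genes, every gene of a list past the threshold, the 2 of each list with the largest rise and the 2 with the largest drop shared by both lines, and the 3 genes most like Dck, Rrm1, Rrm2 and Rrm2b. Scaling, background, filter, probe rule, model and each line left out were varied.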

Additional observations from a re-analysis of the deposited data

Results flagged for a closer look

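In 3 of the 10 genes the changes after halofuginone, as read, had opposite signs in the lines, and the difference was not tested, since a line has only 1 control and 1 treated array. For Rrm2 the change in K6 minus that in K5 was -1.71, with all 4 readings well above background and opposite signs under every scaling tried, though the K5 change is about the size of the scanner error. For Slc28a3 the difference as read was 5.64, but 2 of its 4 readings are not well above background. With those set at their detection limits, the K5 change is -1.77 and the K6 change -0.55, a difference of 1.22. These are not strict bounds, and the sign in K6 stays unknown. For Dctd the difference was 0.29, close to the scanner error of a change, and its sign in K6 varies with the scaling.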

How the results depend on the processing

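The count of genes that passed for halofuginone was 1710, and how many of the 10 passed followed it. It was 2482 with median centring (1 of the 10, Nt5c), 5428 with normexp background correction (4: Slc29a1, Nt5c, Rrm1 and Rrm2b), 4012 with genes well above background on all 4 arrays (2: Nt5c and Rrm2b) and 4200 with a variance trend (2: Slc29a1 and Nt5c). It was 0 with the percentile taken over probes well above background on all 4 arrays, 0 without the filter on dim probes and 0 with no replicate block, where 6482, 15052 and 4492 genes had an unadjusted p under 0.05 (limma). That percentile moved the median change of all genes to -0.115. For K6 against K5 the count was 33 and became 148 with quantile normalization, 296 with median centring, 1309 with normexp (1 of the 10, Dctd), 152 with the authors' deposited value table, 305 with genes well above background on all 4 arrays (1, Dctd), 293 with a variance trend and 165 with the percentile over probes, an alternative chosen after seeing the data. It was 0 with the percentile over probes well above background on all 4 arrays, without the filter, with the mean over probes, with every probe fitted and with no replicate block (2834, 3655, 2892, 4142 and 798 at an unadjusted p under 0.05, limma). The cause was not tested.

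No alternative fit over both lines turned the sign of a halofuginone change of the 10 genes. Over them the mean change of Nt5c ran from -1.79 to -1.25 (adjusted p 0.00174 to 0.136), that of Rrm2b from 0.79 to 1.08 (0.0335 to 0.148) and that of Slc29a1 from 0.78 to 0.95 (0.0255 to 0.169). The -1.25 of Nt5c came from the mean over probes, which takes in the probe on the opposite strand. With K5 left out, replicate 1, the change was 1.67 for Slc28a3, 0.013 for Dctd and -1.49 for Rrm2, and with K6 left out, replicate 2, it was -3.98, -0.27 and 0.22. Of these only Rrm2 kept opposite signs under every scaling, with a K5 change of about the scanner error, and the K6 change of Slc28a3 rests on a reading not well above background. Counts without a line could not be fitted, because no residual degree of freedom is left among samples. The change of Dctd in K6 ran from -0.17 to 0.11 over the scalings, so its sign there depends on them. Dim signal limits Slc28a3.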
